A study of Homo sapiens with 6 samples.

Results

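The 9 genes described here mark kidney lineage and epithelial or mesenchymal character: the paired-box factors PAX8 and PAX2, the keratins KRT7, KRT8, KRT18 and KRT19, the cadherins CDH1 and CDH2, and VIM. They were taken by symbol from the deposited table of 20532 genes, where each of the 9 has 1 row. RNA was sequenced from ACHN, an established line from a metastatic renal adenocarcinoma that the labels assign to clear cell renal cell carcinoma. Of 6 libraries, 3 (shCtrl 1, 2 and 3) came from ACHN transduced with a lentiviral negative control hairpin. The other 3 (shDNAJC2 1, 2 and 3) came from ACHN in which a lentiviral hairpin lowered DNAJC2, a ribosome-associated co-chaperone. The lines are called stable, while the sources used here do not give hairpin sequences, clonality or time after transduction. Nothing says that the biological replicates came from separate transductions, so p-values measure the spread between these libraries.

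PAX8 and PAX2 are related transcription factors that specify the nephric lineage, and PAX8 in particular stays on in most renal cell carcinomas, where it serves as a diagnostic nuclear marker. Keratins build epithelial intermediate filaments from pairs of a type I and a type II chain. KRT18 and KRT8 are the partners of simple epithelia such as the renal tubule, while KRT7 (type II) and KRT19 (type I) have a narrower range. E-cadherin, from CDH1, and N-cadherin, from CDH2, hold neighbouring cells together through catenins, and proximal tubule cells and many renal carcinomas carry N-cadherin. Vimentin, from VIM, is the mesenchymal filament protein, which clear cell carcinomas often make together with keratins. A renal carcinoma line would therefore commonly show PAX8, KRT8 and KRT18, with VIM, and with CDH1 or CDH2.

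Of the 9 genes, 6 had at least 1 CPM in all 6 libraries, where CPM is the count scaled to library size with TMM factors. KRT19 reached that level in all libraries but shDNAJC2 3. CDH1 and PAX2 lay below what 3 counts would give. The libraries held 17491462 to 25760291 counts, and 3 counts, the limit that a count of 0 allows, were 0.115 to 0.179 CPM, for counting error only. DNAJC2 was at 69.8 to 86.5 CPM in the control libraries and at 38.5 to 51.2 CPM in the knockdown libraries, lower in each knockdown library than in any control (log2 fold change −0.74, SE 0.15, n = 3 each, adjusted p = 0.43 in edgeR, and 0.0080 without shCtrl 3). shCtrl 3 stood apart from the other controls. On the first principal component, with 79.4% of the variance, shCtrl 1 and 2 lay at 52.6 and 51.0, shCtrl 3 at −36.1, shDNAJC2 1 and 2 at −34.3 and −34.6, and shDNAJC2 3 at 1.4. The fold changes of the 9 genes and of the lists are therefore given with and without that library.

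The order of level per length was VIM, CDH2, KRT18, KRT8, KRT7, KRT19, PAX8, PAX2 and CDH1. Levels of different genes are compared as mean CPM per kilobase of annotated exon over the 6 libraries. VIM had 700.4, CDH2 27.4, KRT18 23.5 and KRT8 5.13 CPM per kilobase. KRT7 had 1.56, KRT19 0.753 and PAX8 0.490 CPM per kilobase. CDH2 and KRT18 overlapped in their ranges over the libraries, as did KRT19 and PAX8. With the longest transcript as the length, KRT18 (36.2) stood above CDH2 (31.3). Among 20279 genes with a length, VIM ranked 26, CDH2 1795 and KRT18 2118. KRT8 ranked 7256, KRT7 10578, KRT19 11746 and PAX8 12301.

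**Figure D1:**
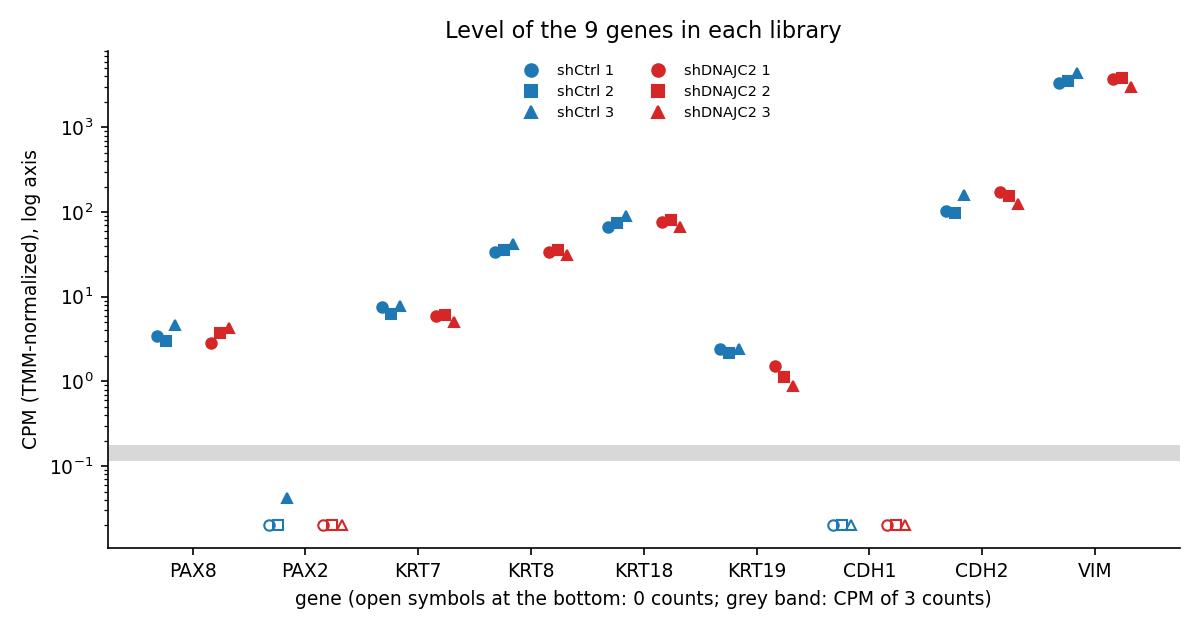
TMM-normalized CPM (log axis) of each of the 9 genes in the 3 shCtrl (blue) and 3 shDNAJC2 (red) libraries, with open symbols for 0 counts and a grey band at the CPM of 3 counts. VIM lies between 2961 and 4350 CPM, PAX8 between 2.82 and 4.64 CPM, CDH1 is at 0 in all 6 libraries and PAX2 has 1 count in shCtrl 3.

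**Figure D2:**
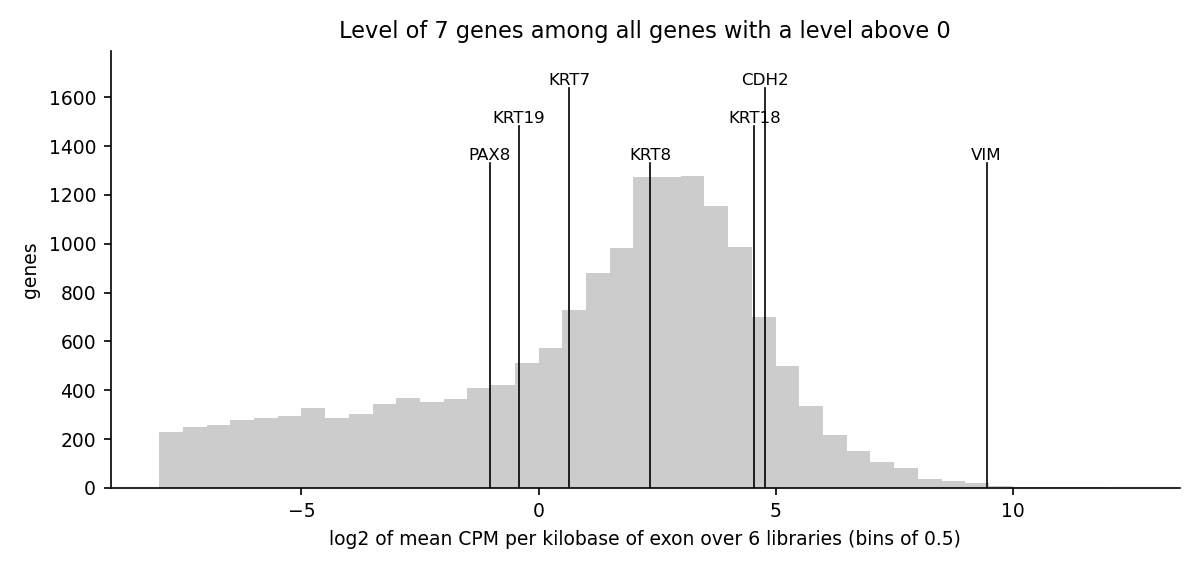
Number of genes by log2 mean CPM per kilobase of exon over 6 libraries (bars, bins of 0.5), with vertical lines at the 7 genes that had 10 or more counts; 3008 genes at 0 and 663 genes below the lowest bin are not drawn. VIM lies in the upper tail, CDH2 and KRT18 on the upper flank, and KRT7, KRT19 and PAX8 on the lower flank.

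The promoters of PAX2, PAX8 and VIM are shown because these genes span the observed levels, from a single count to the abundant end of the table. They are 300-base windows from RefSeq on GRCh38.p14, from 250 bases before to 50 after an annotated start, and 5 of the 9 genes matched that table (CDH2, KRT8, PAX2, PAX8 and VIM). Capitals mark the E-box CACCTG, searched on both strands, the sequence that ZEB and SNAI factors bind.
PAX2 promoter, chr10:100745332-100745631, plus strand: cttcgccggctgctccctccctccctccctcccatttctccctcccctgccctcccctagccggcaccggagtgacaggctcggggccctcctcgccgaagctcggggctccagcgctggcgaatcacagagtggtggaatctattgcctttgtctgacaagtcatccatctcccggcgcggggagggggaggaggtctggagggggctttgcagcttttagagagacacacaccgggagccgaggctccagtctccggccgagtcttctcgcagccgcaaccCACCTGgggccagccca
PAX8 promoter, chr2:113278872-113279171, minus strand: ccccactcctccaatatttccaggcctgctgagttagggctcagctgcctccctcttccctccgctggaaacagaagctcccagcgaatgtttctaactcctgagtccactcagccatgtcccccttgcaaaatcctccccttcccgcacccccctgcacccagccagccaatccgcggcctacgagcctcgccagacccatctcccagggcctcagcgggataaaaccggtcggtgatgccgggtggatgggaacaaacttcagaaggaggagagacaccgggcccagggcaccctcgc
VIM promoter, chr10:17227991-17228290, plus strand: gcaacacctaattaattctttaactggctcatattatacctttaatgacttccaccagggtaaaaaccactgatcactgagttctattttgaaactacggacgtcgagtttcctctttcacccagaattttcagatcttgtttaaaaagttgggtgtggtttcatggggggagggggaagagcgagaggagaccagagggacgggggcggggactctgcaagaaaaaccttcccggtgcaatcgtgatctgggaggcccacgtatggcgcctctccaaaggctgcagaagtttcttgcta
The E-box was found 1 time in the PAX2 window shown, and in 0 of the other 6 windows of the 5 genes. Among 35114 promoter windows of that length, 20.6% held it. CpG dinucleotides numbered 19 in the PAX2 window, 13 in PAX8 and 10 in VIM against a median of 14 over all windows. A match is a description of the letters and says nothing of binding.

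PAX8 (ENSG00000125618, GRCh38 chromosome 2, 113215997 to 113278950, minus strand) was present at a low level in every library. The controls shCtrl 1 to 3 gave 83, 78, then 111 counts, or 3.40, 2.98, then 4.64 CPM. The knockdown libraries 1 to 3 gave 54, 62, then 106 counts, or 2.82, 3.71, then 4.22 CPM. The group ranges overlapped, at 3.68 ± 0.866 and 3.58 ± 0.708 CPM (SD, n = 3 each). Of the genes with a length, 39.4% stood at or below its level per kilobase, a count that takes in the genes at 0. The antisense gene PAX8-AS1, which has no row in the table, shares 9.26% of the PAX8 exon bases, and the strand setting of the counting is unknown here, so reads of the 2 genes cannot be told apart there.

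PAX2 (ENSG00000075891, chromosome 10, 100735603 to 100829941, plus strand), the paralog that acts beside PAX8 in the ureteric bud and nephron, had 1 count in shCtrl 3 and 0 in the other 5 libraries. Both numbers lie under the limit of 3 counts, so PAX2 was not detectable at this depth. The 24 kidney lineage factors of the context list split in the same way. Of these, 7 had a mean of at least 1 CPM, 14 were under 0.1 CPM and 5 were at 0 (EMX2, HNF4A, IRX1, FOXI1 and TFAP2B). LHX1, a factor of the early nephron, had 5 counts over all libraries. Among the more abundant were SALL1 (9.46 CPM per kilobase) and OSR1 (3.22 CPM per kilobase), factors of the progenitor mesenchyme of the developing kidney.

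Segment markers of the nephron were likewise uneven. Of 24 proximal tubule genes, 9 had at least 1 CPM, led per kilobase by the peptidase genes ANPEP (67.2 CPM) and MME (103.1 CPM) and the glucose transporter gene SLC5A2 (30.3 CPM). MME and ANPEP are also made by fibroblasts. Uptake genes of that segment were mixed. AMN, a partner of the receptor cubilin, was at 23.3 CPM, but the cubilin gene CUBN at 0.924 CPM. The amino acid transport gene SLC3A1 was at 11.1 CPM, but SLC7A9 of the same list at 0.121 CPM. The dicarboxylate transporter gene SLC13A3 was at 6.55 CPM. The endocytic receptor gene LRP2 had 1 count in all, and the transporter genes SLC34A1, SLC22A6, SLC22A8 and SLC22A2, the acyl-CoA synthetase gene ACSM2A and the injury marker HAVCR1 were at 0. Of 16 distal nephron and collecting duct genes, 1 (AQP3, 5.11 CPM) had a mean of at least 1 CPM, and UMOD, CLDN8 and the kidney cadherin CDH16 were at 0. AQP3 read 11.6 and 12.9 CPM in shCtrl 1 and 2 but 1.017 to 2.745 CPM in the other libraries. Of 15 genes used in the diagnosis of renal carcinoma, 9 had a mean of at least 1 CPM over the 6 libraries. These were VIM, MME, CA12, AMACR, KRT7, CA9, PAX8, NDUFA4L2 and EPCAM. CA9 was lowest in shCtrl 1 (0.861 CPM) and shCtrl 2 (1.30 CPM), and ranged from 7.68 to 8.83 CPM elsewhere. NDUFA4L2 split alike, with 0.697 CPM for shCtrl 1, 0.535 CPM for shCtrl 2 and a range of 2.63 to 3.055 CPM elsewhere. EPCAM fell to 0.840 CPM in shCtrl 2. Set against the labelled renal carcinoma line, PAX8, MME and CA12 were present, while PAX2, LRP2 and CDH16 were at or under the limit of 3 counts. The identity of the line was not tested here beyond these markers, and the name ACHN is that of the labels.

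Among the keratins, the KRT8 and KRT18 partners were both expressed in every library. KRT18 (ENSG00000111057, chromosome 12, 52948871 to 52952901, plus strand) read 66.5, 73.4, then 89.8 CPM across shCtrl 1 to 3. Across shDNAJC2 1 to 3 it read 75.8, 80.1, then 67.5 CPM. KRT8 (ENSG00000170421, chromosome 12, 52897187 to 52949954, minus strand) read 34.2, 36.1, then 41.7 CPM across the controls, then 33.8, 35.4, 30.9 CPM across the knockdown libraries. The groups overlapped for both genes, with shCtrl 3 the highest of the 6 and shDNAJC2 3 the lowest for KRT8. The ratio of KRT18 to KRT8 per kilobase of exon was 4.16 to 4.61 in the controls and 4.67 to 4.84 in the knockdown, and 2.67 to 2.95 and 3.0 to 3.1 with the longest transcript as the length. A group difference in this ratio was not tested, and neither gene passed in edgeR (adjusted p = 0.89 for KRT18 and 0.52 for KRT8). The type I partner exceeded the type II partner in each library on either length, and the factor rested on the length chosen.

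The KRT18 count carries a further uncertainty, because its coding sequence survives in many processed pseudogenes. Of all 50-base windows of its longest coding transcript, 43.4% also occur in transcripts of other annotated genes, among them 43 pseudogenes, and 15.2% of 100-base windows do, all shared with KRT8, whose model overlaps it on the opposite strand by 525 exon bases. The coding window below (positions 991 to 1040 of the transcript, read from GENCODE 29) is shown as the 50 bases that the most pseudogenes hold unchanged, 10 of them.
KRT18 coding window: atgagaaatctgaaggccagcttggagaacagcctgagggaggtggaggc
KRT8 shared 3.73% of its 50-base windows and KRT19 1.79%. How the authors' counting treated reads that match more than 1 gene is not known here, so the KRT18 level is uncertain.

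Of the 4 keratins, KRT7 and KRT19 were lower in each knockdown library than in any control, as were 8.43% of all genes tested. KRT7 (ENSG00000135480, chromosome 12, 52232520 to 52252186, plus strand) read 7.46, 6.26, then 7.70 CPM across shCtrl 1 to 3. Across shDNAJC2 1 to 3 it read 5.90, 6.10, then 4.97 CPM. The groups did not overlap, though the gap between shCtrl 2 and shDNAJC2 2 was narrow. KRT19 (ENSG00000171345, chromosome 17, 41523617 to 41528308, minus strand), the smallest keratin, had 59, 57, then 58 counts across the controls and 29, 19, then 22 across the knockdown libraries. That is 2.42, 2.18, 2.43 CPM against 1.51, 1.14, 0.875 CPM, with no overlap, and means of 2.34 ± 0.142 and 1.18 ± 0.321 CPM (SD, n = 3 each). Here shCtrl 3 stood with the other controls, unlike on the first principal component.

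Beyond these 4, the keratin family was mostly silent. Of 55 keratin genes in the table, 8 had a mean of at least 1 CPM, 44 were under 0.1 CPM and 27 were at 0, including the basal keratin KRT5 and its squamous relatives KRT6A, KRT6B and KRT1. The other 4 above 1 CPM were KRT10 (40.8 CPM), a suprabasal epidermal keratin, KRT80 (8.75 CPM), and the hair keratins KRT81 (2.83 CPM) and KRT34 (2.27 CPM). KRT34 moved with the library that stood apart, reading 0.451, 0.611, then 3.60 CPM across shCtrl 1 to 3 and 3.86, 3.41, then 1.71 CPM across the knockdown libraries. KRT80 was also lower in the knockdown without overlap, at 7.52 to 8.26 CPM against 8.29 to 10.5 CPM in the controls (log2 fold change −0.27, adjusted p = 0.45 in edgeR). The same separation held for 8.43% of all genes tested. KRT10 read 37.0 to 43.9 CPM over the 6 libraries.

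VIM outweighed the keratins in each library. VIM (ENSG00000026025, chromosome 10, 17228259 to 17237593, plus strand) read 3322, 3521, then 4350 CPM across shCtrl 1 to 3. Across shDNAJC2 1 to 3 it read 3702, 3820, then 2961 CPM, and its share of all counts was 0.306 to 0.404% over the 6 libraries. shCtrl 3 was highest and shDNAJC2 3 lowest, so the groups overlapped. Per kilobase it exceeded the sum of the 4 keratins 21.2- to 23.5-fold. Its antisense genes VIM-AS1 and AL133415.1, neither with a row in the table, share 38.2% of the 50-base windows of its longest coding transcript. Of 15 intermediate filament genes other than keratins, VIM included, 10 had at least 1 CPM, with the lamin genes LMNA (749.0 CPM) and LMNB2 (489.0 CPM) next after VIM per kilobase, while the muscle filament gene DES stayed below 1 CPM. Among 7 plakins, which tie filaments to junctions and the cytoskeleton, PLEC (750.5 CPM) led, and DSP, which anchors keratins at desmosomes, was at 1.77 CPM. Of 13 desmosome genes 6 had at least 1 CPM, led per kilobase by PERP (92.3 CPM), JUP (23.0 CPM) and the cadherin DSG2 (14.2 CPM). The cadherins DSG1, DSG3 and DSG4 were at 0.

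The cadherins were split between N-cadherin and an undetected E-cadherin. CDH1 (ENSG00000039068, chromosome 16, 68737225 to 68835548, plus strand) had 0 counts in all 6 libraries, which allows up to 0.115 to 0.179 CPM. CDH2 (ENSG00000170558, chromosome 18, 27950966 to 28177446, minus strand) read 102.9, 98.0, then 159.5 CPM across shCtrl 1 to 3. Across shDNAJC2 1 to 3 it read 172.0, 155.9, then 125.1 CPM. Per kilobase of exon, CDH2 was at least 1040-fold higher than CDH1 in every library, with CDH1 set to 3 counts in each. shCtrl 3 lay among the knockdown libraries for CDH2 and above shDNAJC2 2 and 3, so the groups overlapped, and the lowest values were those of shCtrl 1 and 2.

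Of 23 cadherin genes, 6 had at least 1 CPM and 6 were at 0: CDH1, the placental cadherin CDH3, the endothelial cadherin CDH5, the kidney cadherin CDH16, CDH19 and CDH22. Next to CDH2, the expressed ones were CDH13 (127.4 CPM), CDH11 (60.6 CPM), a cadherin of mesenchyme, CDH6 (59.9 CPM), a cadherin of the developing proximal tubule and of renal carcinomas, CDH24 (21.6 CPM) and CDH4 (16.1 CPM). CDH6 spread most, reading 122.5, 127.3, then 17.7 CPM across shCtrl 1 to 3 and 25.99, 22.8, then 42.8 CPM across the knockdown libraries. The catenins that link cadherins to actin were abundant, with CTNNA1 at 388.3 CPM, and 12 of 16 adherens junction partners had at least 1 CPM.

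Other epithelial and mesenchymal genes were read from the same libraries. Of 36 genes of epithelial junctions and identity, 21 had at least 1 CPM, but the median gene of that list was at 0.342 CPM per kilobase. The highest mean levels per kilobase were those of CLDN1 (54.5 CPM), TJP1 (116.7 CPM) and KLF5 (34.5 CPM). CLDN1 owed its place to 4 libraries, at 12.6 and 13.4 CPM in shCtrl 1 and 2 but 49.2 to 89.7 CPM in the others. By contrast, the epithelial surface gene EPCAM was at 1.18 CPM and the epithelial regulator GRHL2 at 0. Of 12 transcription factors linked to repression of E-cadherin, 10 had at least 1 CPM, led per kilobase by TCF3 (165.5 CPM), TWIST2 (36.2 CPM) and SNAI2 (49.0 CPM). Of 24 fibroblast and mesenchyme genes all 24 had at least 1 CPM, with a median of 22.4 CPM per kilobase, led by COL6A1 (1135 CPM), COL6A2 (1063 CPM) and the surface enzyme gene NT5E (891.2 CPM). The summed level of that list was 14500 to 16800 CPM in the controls and 12600 to 13000 CPM in the knockdown. Its part in the values of the 9 genes was not tested, and in bulk RNA fewer cells of a type and less RNA per cell cannot be told apart.

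Other cell types were read from short marker lists, most of which had fewer than 5 genes at 1 CPM or more. Of 9 mesothelial genes 2 had at least 1 CPM, as did 2 of 9 urothelial, 4 of 9 endothelial, 2 of 11 blood and immune, and 3 of 8 melanocyte and glial genes. Each list held both silent and expressed genes. The mesothelial MSLN was at 0.145 CPM, but BNC1 at 9.03 and CALB2 at 1.77 CPM. The urothelial UPK3A was at 0 and PPARG at 10.5 CPM, the endothelial CDH5 at 0 and TEK at 57.2 CPM, and the melanocyte genes TYR at 0 and PMEL at 32.5 CPM. In the blood and immune list CD3E was at 0 and CORO1A at 4.72 CPM. Of 10 smooth muscle and pericyte genes 9 had at least 1 CPM, led per kilobase by TAGLN (117.0 CPM), with a summed level of 425 to 653 CPM in the controls and 331 to 367 CPM in the knockdown. The part of these genes in the values of the 9 genes was not tested.

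**Figure D3:**
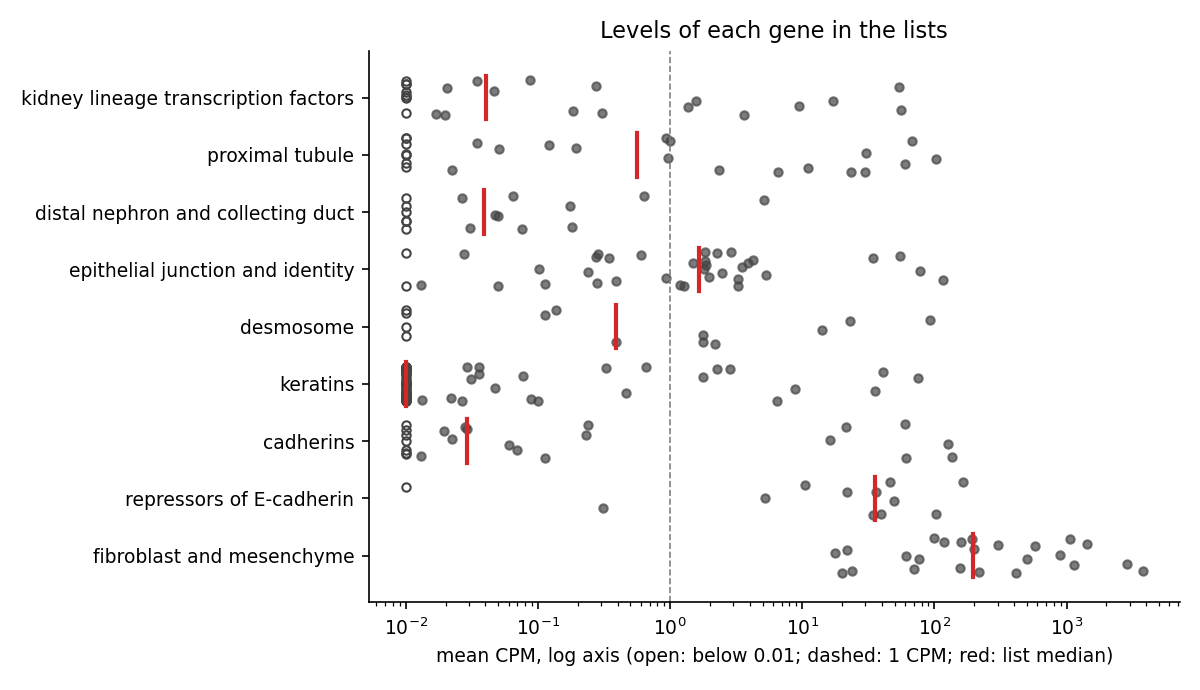
Mean CPM over 6 libraries (log axis) of each gene in 9 lists, with open points below 0.01 CPM, a dashed line at 1 CPM and a red bar at each list's median gene. Keratins and cadherins are mostly far below 1 CPM with a few abundant members, and the 24 fibroblast and mesenchyme genes all lie above 1 CPM.

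Whether lowering DNAJC2 went with a change in these genes was tested over the whole table, with edgeR's quasi-likelihood test, two-sided, on 13988 genes that passed a filter on low counts. Of the 9 genes 7 passed that filter, and CDH1 and PAX2 did not. edgeR called 0 of the 7 and 0 of all genes (percent called 0%) at an adjusted p under 0.05. At an unadjusted p under 0.05, 1 of the 7 (KRT19) passed, against 11.3% of all genes, or 7.33% counting only those lower in the knockdown, and limma-voom and DESeq2 also called 0 of them. DESeq2 called 18 genes in all (0.103%), and gave KRT19, KRT7 and PAX8 no adjusted p. The groups did not overlap for KRT7 and KRT19, both lower in the knockdown, beside 8.43% of all genes tested that were separated in that direction. In the other direction, 0 of the 7 were separated, beside 7.33% of all genes.

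KRT19 had the widest difference of the 7, with the knockdown at 50.03% of control (95% interval 32.1 to 77.9%). Its log2 fold change was −1.0 (SE 0.27, adjusted p = 0.43 in edgeR, unadjusted p = 0.0079), and by exact permutation of the libraries p was 0.1 (two-sided), the lowest value possible with 3 against 3. KRT7 was at 79.1% of control (59.5 to 105%), with a log2 fold change of −0.34. CDH2 was at 126% of control (87.4 to 181%), a log2 fold change of 0.33 with an adjusted p of 0.49 in edgeR. KRT8 at 89.4% (73.3 to 109%), KRT18 at 97.3% (77.1 to 122.6%), VIM at 93.7% (69.4 to 126%) and PAX8 at 97.7% (63.8 to 150%) had intervals that spanned no change and left room for differences of either sign.

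Without shCtrl 3, 2 of the 7 passed in edgeR, where 34.8% of all genes tested were called. KRT19 fell by 0.98 on the log2 scale (95% interval −1.61 to −0.35, adjusted p = 0.026), where 17% of all genes tested were called lower. With the GC trend of each library also removed, a step chosen after seeing the data, that call was lost (−0.77, adjusted p = 0.087 in edgeR). CDH2 rose by 0.59 (0.28 to 0.90, adjusted p = 0.012), where 17.8% were called higher. The log2 fold change of KRT19 was nearly the same with and without that library, whereas that of CDH2 was 0.33 with it. That fit compares 2 control libraries with 3 and leaves out a library chosen because it stood apart. The 2 controls left differed little, with a chi-square over degrees of freedom of 3.19 between them. It was 171 and 177 between each of them and shCtrl 3, and 7.51 to 39.5 between knockdown libraries. The p-values without shCtrl 3 therefore rest on a narrow control spread. The signs of PAX8 (0.18), KRT18 (0.09) and VIM (0.03) turned in that fit, with none of the 3 past the threshold. KRT7 was at −0.28 (−0.68 to 0.12) and KRT8 at −0.07 (−0.32 to 0.18), also short of it.

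**Figure D4:**
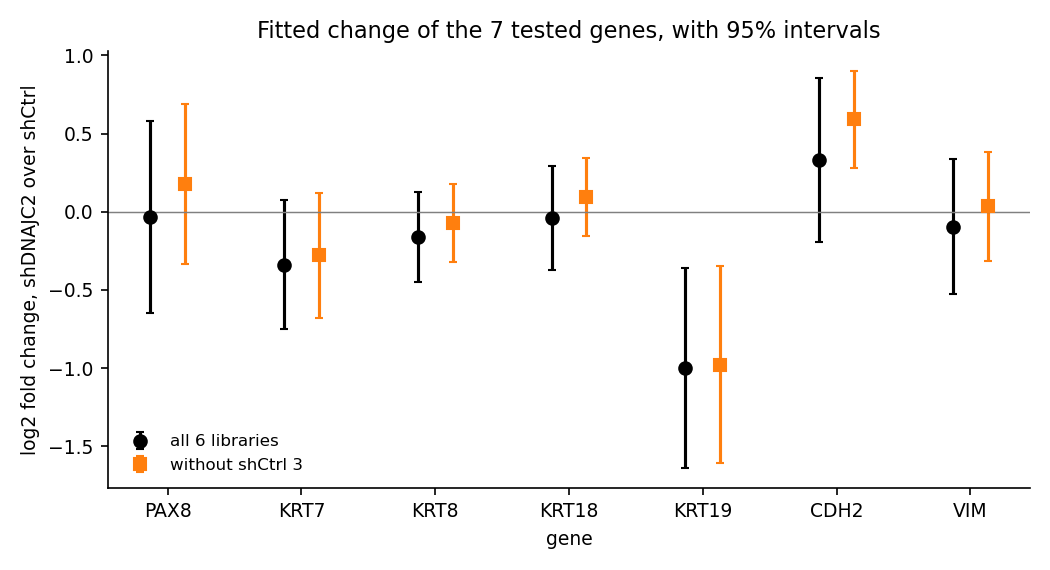
Fitted log2 fold change of shDNAJC2 over shCtrl with 95% intervals for the 7 tested genes, with all 6 libraries (black circles) and without shCtrl 3 (orange squares). The KRT19 interval lies below 0 in both fits, and the CDH2 interval lies above 0 only without shCtrl 3.

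The GC content of the transcript moved with these differences. KRT7 (62.9% GC) and KRT19 (61.8%) are richer in G and C than the median tested gene (48.5%). Among 1577 tested genes with a GC content of 60 to 65%, the median log2 fold change was −0.21 and 22.2% were lower in the knockdown without overlap, against 1.27% of 2998 genes at 40 to 45%. With the GC trend removed over all 6 libraries, the log2 fold change of KRT7 was −0.10 and that of KRT19 −0.77 (unadjusted p = 0.041, adjusted p = 0.61 in edgeR). CDH2 (44.97% GC) was at 0.26 and VIM (46.9%) at −0.13 in that fit, and PAX8 and KRT18 turned to 0.09 and 0.07. How far GC content accounts for the values of KRT7 and KRT19 was not tested beyond this fit.

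**Figure D5:**
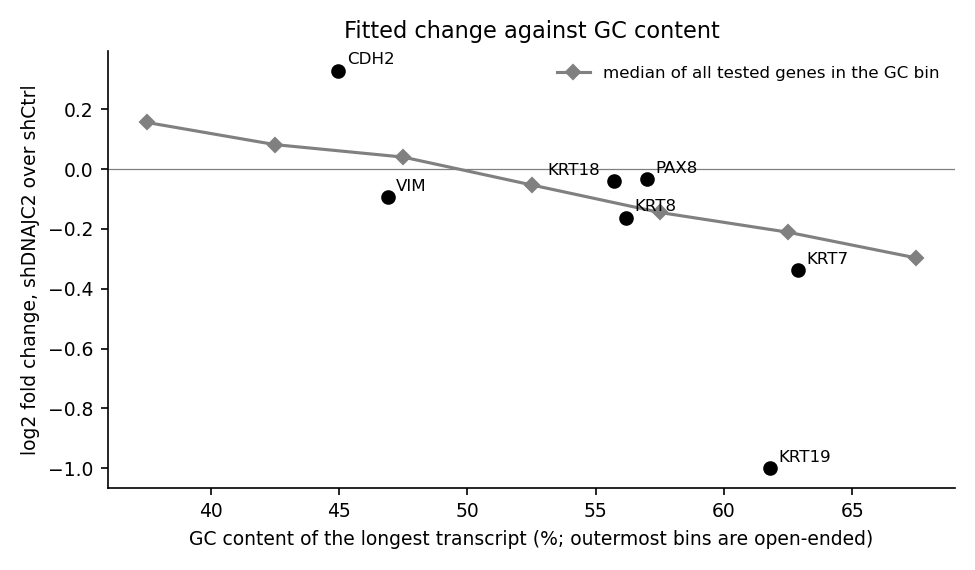
Fitted log2 fold change of shDNAJC2 over shCtrl against GC content of the longest transcript for the 7 tested genes (black points), with the median of all tested genes in 7 GC bins (grey diamonds). KRT19 lies farther below the grey line than KRT7, and CDH2 lies above it.

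The context lists give the surroundings of these values, by edgeR over all 6 libraries, in which 0 genes of any list passed. The median log2 fold change was −0.02 over all tested genes. It was −0.03 over 10 tested keratins, −0.01 over 6 cadherins, −0.38 over 11 other intermediate filaments and −0.20 over 12 adherens junction partners. It was −0.16 over 6 desmosome genes, −0.09 over 23 epithelial junction and identity genes, −0.17 over 10 factors linked to repression of E-cadherin and −0.25 over 24 fibroblast and mesenchyme genes. Over the 7 tested kidney lineage factors it was −0.32, with all 7 negative, and over 10 smooth muscle and pericyte genes −0.68, with all 10 negative and 7 without overlap. Of all tested genes, 52.3% were negative and 8.43% were lower without overlap. Without shCtrl 3 the medians of keratins (0.04) and cadherins (0.16) turned positive, and those of other intermediate filaments (−0.41), adherens junction partners (−0.29), desmosome genes (−0.31), epithelial genes (−0.15), repressors (−0.30), fibroblast genes (−0.27), kidney lineage factors (−0.45) and smooth muscle genes (−0.89) stayed negative. In that fit, where 17.8% of all genes were called higher and 17% lower, 3 of the 6 cadherins rose (CDH2, CDH4 and CDH13) and 2 fell (CDH6 fell by 2.02 and CDH24 fell by 0.67), while 3 of the 11 tested repressors fell, among them TWIST1, which fell by 0.91, and TCF3, which fell by 0.39. In the same fit 8 of 10 smooth muscle and pericyte genes and 9 of 24 fibroblast and mesenchyme genes fell, and 3 of those 24 rose. These counts and medians are descriptions only.

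The genes whose pattern over the 6 libraries was most like that of each gene were found by the root mean square difference of centred log2 CPM, among 11345 genes with a mean of at least 5 CPM. For CDH2 they were SERP1 (0.0257), SPIRE1 and JMJD1C, and for VIM SF3A1 (0.0389), PEMT and CPT1A. KRT18 was nearest to DAXX (0.0223), MDH2 and CD81, and KRT8 to GTF2IRD1 (0.0258), CFL1 and LARS2. KRT7 was nearest to BASP1 (0.0620), STMN3 and TMPPE, and PAX8 to NPDC1 (0.0589), WHRN and ZMIZ2. KRT19 was nearest to DNAJC2 (0.172), then GATA2 and TAGLN, with larger differences than for the other members. Its own values rest on 19 to 59 counts per library. DNAJC2 is the gene that the hairpin lowered, and KRT19 had the widest group difference of the tested members. Their nearness restates that difference, and a link between the genes was not tested.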

How the data were processed

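RNA enriched for mRNA was sequenced as 6 paired-end libraries, per the labels' protocols, and the authors deposited raw counts of reads per gene. The build was GRCh38, per the submitters' processing notes. Which aligner, counter, annotation release and strand option were used is not given in the sources used here. Columns were matched to libraries by title. Of 20532 genes, 20279 matched GENCODE 29 by identifier, which gave coordinates, exon lengths and the GC content of the longest transcript.

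The main test was that of edgeR 4.0.16, run in R 4.3.3 (quasi-likelihood F test, TMM, filterByExpr, Benjamini-Hochberg over all genes tested, threshold 0.05), with group as the only term. log2 CPM used a prior count of 2, and intervals are at 95%. The alternatives were other scalings and filters, DESeq2 1.42.0, limma-voom (limma 3.58.1), a replicate block, leaving out each library, other CPM thresholds and another length. The fits were tested on simulated counts. Total counts and the spread between libraries set the precision, and 3 counts were taken as the limit of a 0. VIM, with 486396 counts, had an SE of 0.18 for its log2 fold change, and KRT8, with 4789 counts, had an SE of 0.12.

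The members and lists were chosen with earlier results of these data known. Named genes are the 9 members, DNAJC2, keratins and cadherins with a mean of at least 1 CPM, from each list described up to 3 genes with the highest level per kilobase and 2 with the smallest p (some are not reported here), defining genes at or near 0, and the nearest patterns. EPCAM, DSP, DES, AMN, CUBN, SLC3A1, SLC7A9, SLC13A3, the diagnostic genes listed together and the expressed genes of other cell types fall outside this rule. They were chosen after their values were seen.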

Additional observations from a re-analysis of the deposited data

How the results depend on the processing

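The number of the 9 genes at or above 1 CPM in all libraries was 6 under each scaling, 7 at a threshold of 0.5 CPM, 4 at 5 CPM, and 6 to 7 when a library was left out. Scaling moved the median log2 fold change of all genes from −0.02 to between −0.06 and −0.01. Deviations of libraries with the same number correlated at −0.38, −0.52 and −0.66, and those with unlike numbers at −0.58 to 0.67. Deviations within a group sum to 0, so these values cannot decide whether libraries with the same number belong together. With the replicate block edgeR called 0 genes and 0 of the 7 members, and KRT19 kept a log2 fold change of −1.02 and CDH2 of 0.36. DESeq2 called 18 genes against 0 in edgeR.

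Leaving out a library gave 0 to 4945 genes called and 0 to 2 members called, where only the fit without shCtrl 3 gave any. The log2 fold changes ranged from −1.22 to −0.80 for KRT19, 0.21 to 0.59 for CDH2, −0.41 to −0.24 for KRT7, −0.21 to −0.07 for KRT8, −0.16 to 0.18 for PAX8, −0.12 to 0.09 for KRT18 and −0.16 to 0.03 for VIM. Without shCtrl 3, PAX8 was at 0.18, KRT18 at 0.094 and VIM at 0.035, and KRT19 (−0.98) and CDH2 (0.59) passed. The sign of PAX8 also turned without shDNAJC2 1 (0.11), and those of KRT18 (0.04) and VIM (0.03) without shDNAJC2 3. With the GC trend removed, added after seeing the data, PAX8 was at 0.090 and KRT18 at 0.073, and at 0.098 and 0.075 with the replicate block besides. With the trend removed and shCtrl 3 left out, edgeR called 5242 genes and 1 member (CDH2, 0.55, adjusted p = 0.017), and PAX8 (0.29), KRT8 (0.041), KRT18 (0.20) and VIM (0.0056) had a positive sign. For these differences the cause was not tested.

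The longest transcript as the length moved the level per kilobase of PAX8 to 0.874, KRT7 to 3.65, KRT8 to 12.3, KRT18 to 36.2, KRT19 to 1.27 and VIM to 1355. Depth limits PAX2 and CDH1 to an upper bound, and KRT19 and PAX8 rest on 19 to 111 counts per library.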
